A study of Mus musculus with 32 samples.

Results

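Klotho and the genes of renal vitamin D handling were followed in the kidneys of a mouse model of polycystic kidney disease. The 5 genes were picked by name, as mineral hormone genes of the tubule, with earlier results of these data known: *Kl*, *Vdr*, *Pth1r*, *Cyp27b1* and *Cyp24a1*. They are 5 of the 53700 genes in the deposited count table. All 5 passed the filter on low counts and were tested among 13961 genes.

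Whole kidneys of 32 male C57BL/6 mice were measured by RNA sequencing, 1 library per kidney. The PKD mice were of the iKspCre-*Pkd1*del line, in which a tamoxifen-inducible Cre recombinase, driven by the promoter of the tubule gene Ksp-cadherin, removes exons 2 to 11 of *Pkd1*, the gene of polycystin-1. The question was what the loss of *Pkd1*, and then treatment with salsalate, a prodrug of salicylate, did to the kidney. The study reports that the kidneys of both PKD groups had been selected from larger groups for a similar, mild cystic phenotype. The PKD group (n = 12) received tamoxifen (150 mg/kg) on postnatal days 18 and 19 and normal chow, and was 95 days old. The PKD + Salsalate group (n = 12) received the same tamoxifen, was fed chow with 2.5 g/kg salsalate for 2 weeks from postnatal day 81, and was also 95 days old. The wildtype group (n = 8) is of mice that got no tamoxifen, and the labels give their age as 109 days, although the protocol has all mice killed on day 95. Tamoxifen, any difference in age and the loss of *Pkd1* cannot be told apart in a comparison with wildtype.

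The kidney is the main source of circulating calcitriol, the active form of vitamin D. Klotho, the product of *Kl*, is a membrane protein of the tubule that lets the bone hormone FGF23 bind its FGF receptors. FGF23 lowers phosphate reabsorption, lowers the calcitriol-making enzyme CYP27B1 and raises the calcitriol-degrading enzyme CYP24A1. Parathyroid hormone (PTH) acts through the receptor encoded by *Pth1r* and raises CYP27B1. Calcitriol itself acts through the vitamin D receptor VDR, a nuclear receptor, which raises *Cyp24a1* and so limits its own signal.

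The members lie on 5 chromosomes of GRCm39. *Kl* is on chromosome 5 (chr5:150876072-150917284, plus strand), *Vdr* on chromosome 15 (chr15:97752306-97808511, minus strand) and *Pth1r* on chromosome 9 (chr9:110550767-110576259, minus strand). *Cyp27b1* is on chromosome 10 (chr10:126884119-126888875, plus strand) and *Cyp24a1* on chromosome 2 (chr2:170324628-170339065, minus strand). Exons of *Vdr*, *Pth1r* and *Cyp24a1* share 124, 95 and 83 bases with exons of a gene on the opposite strand (*Gm62301*, *Myl3* and *Pfdn4*), and the counting was by strand.

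Promoter sequences from RefSeq (GRCm38.p6) were found for 4 of the 5 members. *Cyp24a1* had no entry. The 250 bases before the start are shown for *Cyp27b1*, the member with the largest rise in PKD kidneys, and for *Kl* and *Vdr*, whose levels followed the sets of wildtype libraries. They are chr10:127047996-127048245 (plus strand), chr5:150952357-150952606 (plus strand) and chr15:97908297-97908546 (minus strand) of GRCm38.p6. They are written 5′ to 3′ with matches to GGGCGG on either strand, the GC box, in capitals.
Cyp27b1: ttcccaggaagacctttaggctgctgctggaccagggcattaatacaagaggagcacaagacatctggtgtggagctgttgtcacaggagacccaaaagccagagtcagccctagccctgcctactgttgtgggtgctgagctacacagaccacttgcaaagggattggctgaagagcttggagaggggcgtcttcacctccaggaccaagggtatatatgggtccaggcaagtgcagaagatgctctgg
Kl: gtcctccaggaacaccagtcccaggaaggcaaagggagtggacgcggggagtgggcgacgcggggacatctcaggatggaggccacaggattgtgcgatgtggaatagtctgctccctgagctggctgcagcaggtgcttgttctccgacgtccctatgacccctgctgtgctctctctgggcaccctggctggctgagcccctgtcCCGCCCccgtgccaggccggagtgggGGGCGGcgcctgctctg
Vdr: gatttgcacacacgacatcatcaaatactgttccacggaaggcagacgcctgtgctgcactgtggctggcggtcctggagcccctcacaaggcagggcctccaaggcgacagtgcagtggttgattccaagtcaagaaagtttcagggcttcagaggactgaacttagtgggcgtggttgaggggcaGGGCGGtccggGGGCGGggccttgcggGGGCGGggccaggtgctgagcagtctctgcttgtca
The GC box was found at 2 places before *Kl* (43 and 17 bases before the start), at 3 places before *Vdr* (63, 52 and 36 bases) and at none before *Cyp27b1*. *Pth1r* has 3 starts in the table, and the box was found before 2 of them. Of 32851 promoter windows of this length, 32.7% held it. The nuclear receptor half-site AGGTCA (14.0% of all windows), the vitamin D receptor half-site GGTTCA (8.85%), the cAMP response element TGACGTCA (1.55%) and the TATA box TATAAA (12.4%) were searched on both strands and matched in none of the windows of these members. No matches shared bases in the windows shown.

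The libraries held between 11193136 and 109807664 counts on genes, so the members rested on 15 to 76028 counts per kidney, with the fewest for *Cyp27b1* in wildtype. Of the 8 wildtype libraries, 5 have names that end in R and 3 do not, and the labels do not say what the ending means. In the R libraries 13.2% to 15.7% of the alignments lay on no annotated gene, against 7.60% to 9.77% in the other wildtype libraries, 7.65% to 16.4% in PKD and 7.87% to 11.9% in PKD + Salsalate. The members are therefore also compared with each wildtype set alone, and so are the lists and those named genes whose call or direction then changed. *Pkd1* counted over its whole length was 68.7 ± 10.9 CPM (counts scaled to the same library size) in wildtype, 92.1 ± 15.1 in PKD and 92.7 ± 15.1 in PKD + Salsalate. This total includes the exons outside the deleted part and cells without active Cre, so it does not check the labels. The summed CPM of 6 markers of injured tubules did not overlap between wildtype (235 to 504) and PKD (1216 to 2683). Markers of liver were high in PKD replicate 10 (summed CPM 3313, against at most 162 elsewhere). Markers of proximal tubule were present in every kidney, and the parathyroid genes *Pth* and *Gcm2* were at 0 counts in every kidney. In RNA from whole kidneys, fewer cells of a type and less RNA per cell cannot be told apart.

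**Figure D1:**
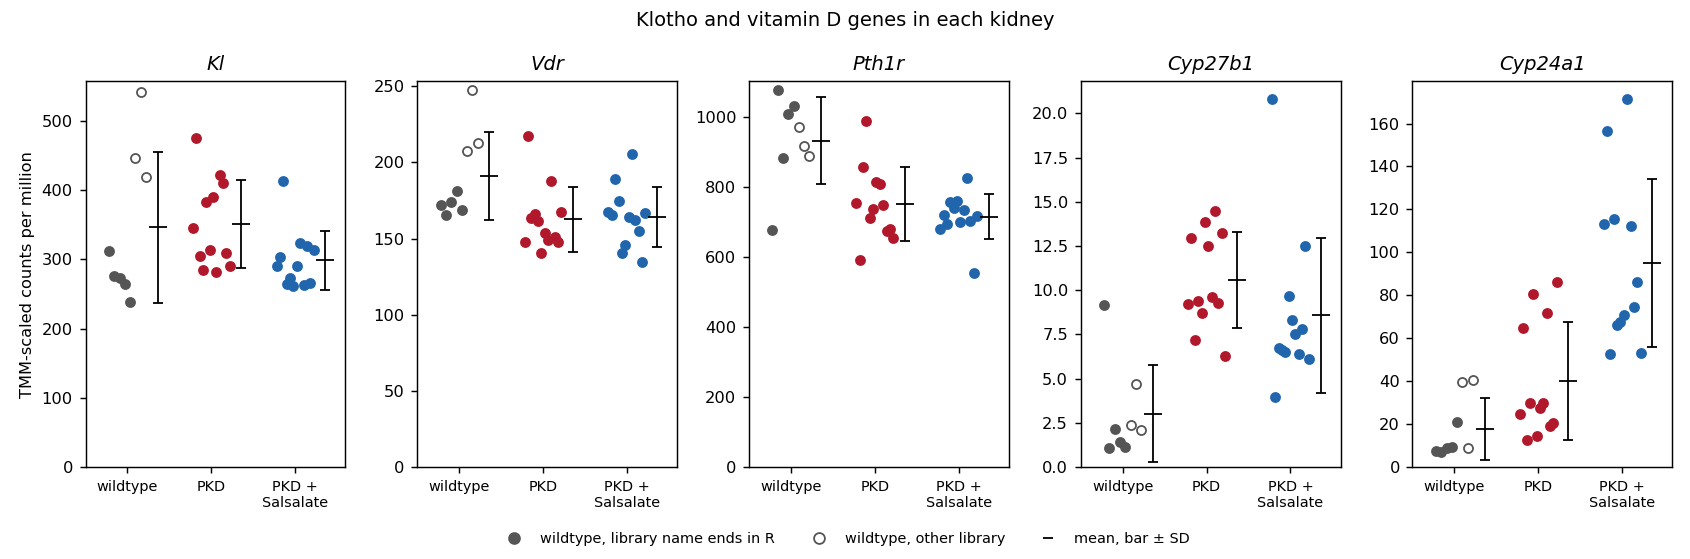
Level of each member in every kidney, as TMM-scaled CPM on a linear axis from 0, with 1 panel per gene and 1 point per kidney. Open wildtype points are the 3 libraries whose names do not end in R, and bars give mean ± SD. *Cyp24a1* in PKD + Salsalate lies above all wildtype kidneys, and the open points of *Kl* lie above the filled wildtype points.

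Per kb of exon, *Pth1r* was the most abundant member in every group, with 195 ± 26.0 CPM per kb in the 8 wildtype kidneys (mean ± SD), 157 ± 22.1 in the 12 PKD kidneys and 150 ± 13.3 in the 12 PKD + Salsalate kidneys. *Kl* followed at 37.2 ± 11.7, 37.6 ± 6.84 and 32.0 ± 4.59 CPM per kb. The level of *Vdr* was 33.3 ± 5.03, 28.3 ± 3.71 and 28.6 ± 3.46 CPM per kb, which is within 1 SD of *Kl* in wildtype and in PKD + Salsalate but not in PKD. The enzymes were lower in wildtype and PKD, with *Cyp24a1* at 5.02 ± 4.04, 11.3 ± 7.67 and 26.7 ± 11.0 CPM per kb and *Cyp27b1* at 1.17 ± 1.07, 4.10 ± 1.06 and 3.34 ± 1.70. In PKD + Salsalate the mean of *Cyp24a1* lay within 1 SD of *Vdr* by the SD of either gene. It lay within 1 SD of *Kl* only by its own SD of 11.0. The gap between the enzymes exceeded 1 SD of *Cyp24a1* in PKD + Salsalate, and not in wildtype or PKD. That gap exceeded 1 SD of *Cyp27b1* in every group.

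*Kl*, the FGF23 co-receptor, had a mean of 351 ± 63.9 CPM in PKD and 347 ± 109 CPM in wildtype when all wildtype libraries were used. Its level was 239, 294 and 542 CPM (lowest, median and highest) in wildtype, 282, 329 and 475 CPM in PKD and 261, 291 and 413 CPM in PKD + Salsalate. All 3 ranges overlapped. Relative to wildtype, *Kl* in PKD had a log2 fold change of 0.02 (95% interval -0.24 to 0.28, adjusted p = 0.923), by edgeR's quasi-likelihood test as throughout. The wildtype range fell apart by library set: the 5 R libraries lay at 239 to 313 CPM and the 3 others at 419 to 542 CPM, without overlap. In PKD it was higher than in the R libraries alone (log2 fold change 0.35, adjusted p = 0.00834) and lower than in the other 3 alone (-0.42, adjusted p = 0.0141). The direction for *Kl* in PKD therefore depended on which wildtype libraries were used.

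The share of alignments on no annotated gene moved with *Kl* also outside the wildtype group. Over the 24 PKD and PKD + Salsalate kidneys, with group means removed, the level of *Kl* (log2 CPM) fell as this share rose (Pearson r = -0.741, permutation p = 5e-05, adjusted p = 0.0005; Spearman rho = -0.729, permutation p = 0.00045, adjusted p = 0.0045; 10 relations of members with this share and with library size). Without the 2 kidneys farthest from the median share, r was -0.723. Within PKD alone r was -0.762 (n = 12, permutation p = 0.0022, adjusted p = 0.022), and within PKD + Salsalate alone -0.73 (n = 12, permutation p = 0.00883, adjusted p = 0.0883) and -0.284 without the 2 farthest kidneys. *Pth1r* rose with the share (r = 0.683, permutation p = 0.00093, adjusted p = 0.00465; rho = 0.537, permutation p = 0.0123, adjusted p = 0.0611), but r was 0.371 without the 2 farthest kidneys. Within PKD alone *Pth1r* had r = 0.751 (n = 12, permutation p = 0.00646, adjusted p = 0.0323), or 0.214 without the 2 farthest kidneys, on which the relation there rested. Within PKD + Salsalate alone it had r = 0.509 (n = 12, permutation p = 0.0944, adjusted p = 0.236), rho = 0.741 (permutation p = 0.0078, adjusted p = 0.078) and r = 0.609 without them. *Kl* was also related to library size (r = 0.639, permutation p = 0.00241, adjusted p = 0.00803), with rho = 0.461 (permutation p = 0.0385, adjusted p = 0.0962) and r = 0.297 without the 2 farthest kidneys. The other 7 relations had adjusted p of 0.0776 or more by Pearson's r. The part of this share in the differences between groups was not tested.

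**Figure D2:**
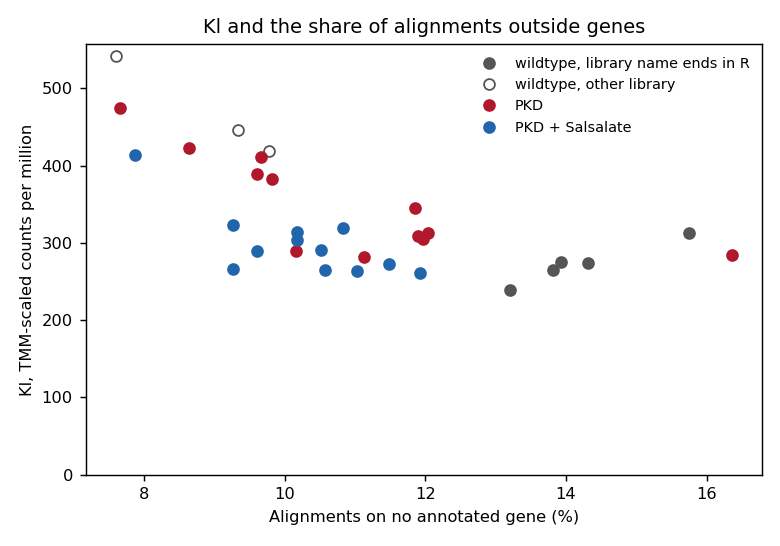
*Kl* (TMM-scaled CPM, vertical axis) against the share of alignments on no annotated gene (percent, horizontal axis), with 1 point per kidney and colours for the groups. The wildtype R libraries sit at 13.2% to 15.7% and 239 to 313 CPM, the other wildtype libraries at 7.60% to 9.77% and 419 to 542 CPM.

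*Vdr*, the calcitriol receptor, was slightly lower in both PKD groups. Its level was 166, 178 and 248 CPM (lowest, median and highest) in wildtype, 140, 158 and 217 CPM in PKD and 135, 165 and 206 CPM in PKD + Salsalate. The ranges overlapped, with 8 of 12 PKD kidneys below the lowest wildtype kidney. The log2 fold change was -0.23 in PKD (SE 0.08, adjusted p = 0.021) and -0.22 in PKD + Salsalate (SE 0.08, adjusted p = 0.0312), both against wildtype. These calls did not hold against the R libraries alone, where the values were -0.09 (adjusted p = 0.356) and -0.07 (adjusted p = 0.471). Against the other 3 wildtype libraries they were -0.45 (adjusted p = 0.00106) and -0.43 (adjusted p = 0.00173).

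*Pth1r*, the PTH receptor, fell in both PKD groups. Its level was 678, 944 and 1076 CPM in wildtype, 592, 742 and 988 CPM in PKD and 555, 719 and 825 CPM in PKD + Salsalate. In PKD, 11 of 12 kidneys lay below the wildtype median, and in PKD + Salsalate all 12 did. The wildtype and PKD ranges overlapped broadly, and the PKD + Salsalate range overlapped wildtype only through the lowest wildtype kidney. The log2 fold change against wildtype was -0.31 (SE 0.08, adjusted p = 0.00214) in PKD and -0.38 (SE 0.08, adjusted p = 0.000298) in PKD + Salsalate. Unlike the 2 members above, it had near-equal means in the wildtype sets (935 ± 161 CPM in the R libraries, 925 ± 41.2 CPM in the others). Against either set alone it stayed lower in PKD (-0.33 and -0.30).

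*Cyp27b1*, which makes calcitriol, showed the largest rise of the members in PKD. Its level was 1.08, 2.13 and 9.19 CPM (lowest, median and highest) in wildtype, 6.29, 9.51 and 14.5 CPM in PKD and 3.97, 7.12 and 20.8 CPM in PKD + Salsalate. All 12 kidneys of each PKD group lay above the wildtype median, and the ranges overlapped. Wildtype replicate 1 (9.19 CPM, 97 counts) was the only wildtype kidney within the PKD range, and the next highest (4.70 CPM) was also above the lowest PKD + Salsalate kidney. The rise was 3.63-fold in PKD (log2 fold change 1.86, SE 0.31, adjusted p = 1.1e-05) and 2.94-fold in PKD + Salsalate (1.56, SE 0.31, adjusted p = 0.000147). Against the R libraries and the others alone, the values in PKD were 1.89 (adjusted p = 0.000122) and 1.83 (adjusted p = 0.000234). With any 1 kidney left out the log2 fold change in PKD stayed between 1.73 and 2.29.

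*Cyp24a1*, which degrades calcitriol, was also higher in PKD and highest in PKD + Salsalate. Its level was 6.85, 9.21 and 40.5 CPM in wildtype, 12.6, 28.7 and 86.1 CPM in PKD and 52.6, 80.4 and 171 CPM in PKD + Salsalate. The PKD kidneys were uneven: replicates 2, 5, 9 and 12 had 64.9, 80.5, 71.9 and 86.1 CPM, and the other 8 lay at 29.9 CPM or less. All 12 PKD kidneys were above the wildtype median, and 4 were above the highest wildtype kidney. In PKD the rise was 2.21-fold (log2 fold change 1.15, SE 0.39, adjusted p = 0.0147), with 1.90 (adjusted p = 0.000469) against the R libraries alone and 0.44 (adjusted p = 0.504) against the other 3 alone. The PKD + Salsalate range lay wholly above the wildtype range. There the rise was 5.18-fold (2.37, SE 0.41, adjusted p = 1.63e-05), and it held with the R libraries alone (3.13, adjusted p = 1.24e-06) and with the others alone (1.66, adjusted p = 0.0174).

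In all, 4 of the 5 members passed the test between PKD and wildtype, 2 higher (*Cyp27b1*, *Cyp24a1*) and 2 lower (*Pth1r*, *Vdr*). Of all genes tested in that comparison 49.1% passed, 24.1% as higher and 25.0% as lower, so a pass alone sets no member apart. The same 4 members passed between PKD + Salsalate and wildtype in the same directions, where 44.9% of all genes passed, 21.8% as higher and 23.2% as lower. Among called rises in PKD, *Cyp27b1* ranked 149 of 3363 and *Cyp24a1* 436 by fold change. Ranges that did not overlap were seen for 0 of 5 members between PKD and wildtype, where 7.28% of all genes had them, and for 1 of 5, *Cyp24a1*, between PKD + Salsalate and wildtype, where 6.39% of all genes had them. Both comparisons use the same wildtype kidneys.

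**Figure D3:**
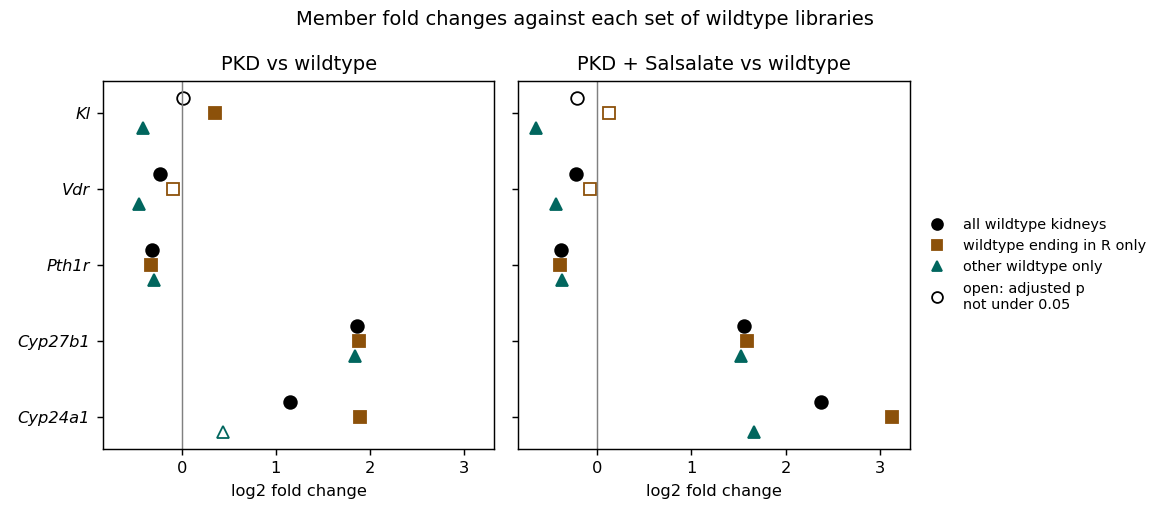
Log2 fold change of each member against all wildtype kidneys (circles), only those whose library names end in R (squares) and only the others (triangles), for PKD on the left and PKD + Salsalate on the right. Filled symbols have an adjusted p under 0.05. *Kl* changes sign between the sets, *Pth1r* and *Cyp27b1* barely move, and *Cyp24a1* in PKD lies between 0.44 and 1.90.

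Salsalate treatment was then compared with untreated PKD. The wildtype libraries entered this comparison only through the filter, the scaling and the shared estimate of spread. *Cyp24a1* had the largest difference of the members: its level was 95.0 ± 39.1 CPM in PKD + Salsalate (SD, n = 12) against 40.2 ± 27.3 CPM in PKD (n = 12). All 12 treated kidneys were above the PKD median, 5 were above the highest PKD kidney, and the ranges overlapped. The difference was 2.34-fold (log2 fold change 1.23, SE 0.33, 95% interval 0.56 to 1.90). By size it was the rise ranked 4 among the 13961 genes, and by p-value it ranked 132. With an unadjusted p of 0.000726 its adjusted p was 0.0768, so it did not pass the threshold in the fit of all 3 groups.

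The call for *Cyp24a1* turned on the test and on the kidneys held in the fit. It passed with DESeq2's Wald test (log2 fold change 1.25, adjusted p = 0.0332), with limma-voom (1.43, adjusted p = 0.0172) and with edgeR on the PKD and PKD + Salsalate kidneys alone (1.23, adjusted p = 0.0336). It also passed when the fit held only the R wildtype libraries (adjusted p = 0.0271) or only the others (adjusted p = 0.0346). It did not pass with DESeq2 size factors, edgeR's own filter, no filter or the replicate number as a block, and over all alternatives the adjusted p lay between 0.0172 and 0.0841. With each kidney left out in turn it lay between 0.0448 and 0.141, and it was under the threshold only without PKD replicate 12, the PKD kidney with the highest *Cyp24a1*. The log2 fold change itself ranged from 1.12 to 1.43 over all these fits.

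The other members gave smaller differences. *Kl* was 299 ± 42.8 CPM in PKD + Salsalate and 351 ± 63.9 CPM in PKD, with 11 of 12 treated kidneys below the PKD median (log2 fold change -0.23, SE 0.11, unadjusted p = 0.04997, adjusted p = 0.486). *Cyp27b1* had a log2 fold change of -0.30 (95% interval -0.80 to 0.20, adjusted p = 0.765), with the highest value of all kidneys in PKD + Salsalate replicate 1 (20.8 CPM). The intervals were narrow for *Vdr* (0.01, -0.14 to 0.16, adjusted p = 0.983) and *Pth1r* (-0.07, -0.22 to 0.08, adjusted p = 0.828). By edgeR 0 of the 5 members passed, against 0.580% of all genes, and 2 of 5 had an unadjusted p under 0.05, against 10.3% of all genes. By DESeq2, limma-voom and edgeR on the PKD and PKD + Salsalate kidneys alone 1 of 5 passed, against 1.43%, 1.05% and 1.40% of all genes. No member had ranges without overlap, against 0.0287% of all genes.

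**Figure D4:**
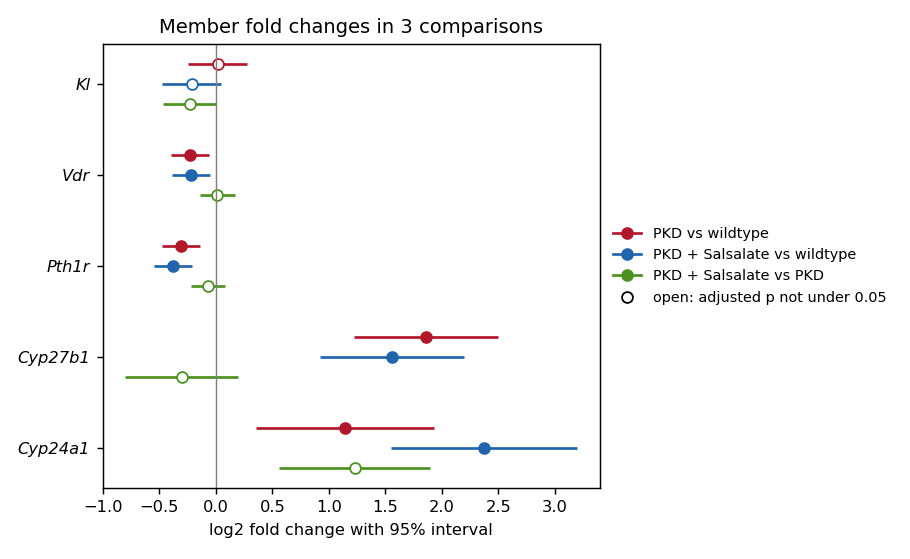
Log2 fold change of each member with its 95% interval in the 3 comparisons, from edgeR's quasi-likelihood fit of all 32 kidneys. Filled points have an adjusted p under 0.05. The interval of *Cyp24a1* between PKD + Salsalate and PKD runs from 0.56 to 1.90 and its point is open, since its adjusted p was 0.0768.

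From kidney to kidney the members varied largely apart. Over the 24 PKD and PKD + Salsalate kidneys, with group means removed, 2 of 10 pairs had an adjusted p under 0.05 by Pearson's r. *Kl* and *Vdr* had r = 0.585 (permutation p = 0.00274, adjusted p = 0.0274), but rho = 0.347 (permutation p = 0.101, adjusted p = 0.324) and r = 0.345 without the 2 kidneys farthest from the *Kl* median, so the relation rested on them. The receptor gene *Vdr* and *Cyp24a1*, a target of the receptor, had r = 0.521 (permutation p = 0.00884, adjusted p = 0.0442), rho = 0.507 (permutation p = 0.0131, adjusted p = 0.131) and r = 0.383 without the 2 farthest kidneys. Within PKD alone that pair had r = 0.641 (n = 12, permutation p = 0.0192, adjusted p = 0.192). Within PKD + Salsalate alone it had r = 0.356 (n = 12, permutation p = 0.254, adjusted p = 0.718). Without PKD replicate 10, with its liver transcripts, the pair lost its call (r = 0.51, permutation p = 0.0138, adjusted p = 0.069). The enzymes *Cyp24a1* and *Cyp27b1* had r = -0.0533 (permutation p = 0.788, adjusted p = 0.793; rho = 0.0235).

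The genes whose levels most resembled each member over the same 24 kidneys differed from member to member. They share libraries and scaling with the member, and r is given as a description. For *Kl* they were *Aldh6a1* (r = 0.936), *Arl6ip1* (0.926) and *Gphn* (0.921), and for *Vdr* *Slc25a42* (0.845), *Alkbh5* (0.799) and *Slc13a3* (0.794), the last a proximal tubule transporter. For *Pth1r* they were *Slc25a39* (0.893), *Ppp1r16a* (0.874) and *Gnl1* (0.865). For *Cyp24a1* the likeness was weaker, with *Amot* (0.703), *Zfp217* (0.701) and *Oxsr1* (0.688). *Cyp27b1* was most like *Samsn1* (0.717), *Rac2* (0.668) and *Cd4* (0.663), genes known from blood cells, and *Cd4* is also in the list of lymphocyte markers. In both PKD groups the 7 macrophage markers tested were higher than in wildtype. Of all genes tested 24.1% were higher in PKD and 21.8% in PKD + Salsalate. The 8 listed macrophage genes summed to 131 to 188 CPM in wildtype, 272 to 401 in PKD and 240 to 430 in PKD + Salsalate. The summed CPM of 8 T and B lymphocyte markers was 16.1 to 37.9 in wildtype, 39.7 to 62.8 in PKD and 29.8 to 57.3 in PKD + Salsalate. The part of these cells in the rise of *Cyp27b1* was not tested.

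Around the members, genes of vitamin D supply and of the receptor's partners moved both ways in PKD. Of 17 listed genes 15 were tested, 3 were higher, 5 were lower, and the median log2 fold change was -0.03 (all genes tested: -0.01). Among all genes tested 24.1% were higher and 25.0% lower, 49.1% in all. With the R libraries alone 6 of the list were higher and 5 lower, where 59.8% of all genes passed. With the others alone the counts were 1 and 3, where 40.5% of all genes passed. *Fdxr*, the reductase that feeds electrons to mitochondrial vitamin D hydroxylases such as CYP27B1 and CYP24A1, was 46.8 ± 10.7 CPM in wildtype and 26.3 ± 4.24 CPM in PKD (log2 fold change -0.83, SE 0.12, adjusted p = 4.98e-07). *Rxrb*, a retinoid X receptor of the kind that pairs with VDR, was 84.6 ± 7.61 and 60.4 ± 6.49 CPM (-0.49, adjusted p = 1.29e-07), and the coactivator *Ncoa1* was 48.9 ± 7.12 and 39.0 ± 3.39 CPM (-0.33, adjusted p = 0.000306). The fall of *Ncoa1* was lost against the wildtype libraries without R (-0.06, adjusted p = 0.589). *Lrp2*, which encodes megalin, the receptor that takes filtered vitamin D up into the proximal tubule, was higher (0.58, adjusted p = 0.00246), where the R libraries alone gave 1.05 (adjusted p = 3e-08) and the others alone 0.03 (adjusted p = 0.887). *Gc*, the vitamin D binding protein, is a liver gene and had a log2 fold change of 2.18 (adjusted p = 0.000476), which was 1.30 (adjusted p = 0.000215) once PKD replicate 10, with its liver transcripts, was left out.

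In the FGF23 and Klotho list, 10 of 14 genes were tested, 5 were higher, 1 was lower, and the median was 0.29. Among all genes tested 24.1% were higher and 25.0% lower. The proteases *Adam10* and *Adam17*, which shed Klotho from the membrane, rose from 34.2 ± 6.66 to 55.1 ± 9.27 CPM (log2 fold change 0.69, adjusted p = 3.42e-06) and from 19.5 ± 2.84 to 27.1 ± 2.05 CPM (0.48, adjusted p = 1.64e-06). *Galnt3*, whose enzyme protects FGF23 from cleavage, rose from 34.4 ± 7.38 to 55.7 ± 9.29 CPM (0.69, adjusted p = 1.32e-06). *Fgfr4*, an FGF receptor, had 0.36 (adjusted p = 0.0337), and -0.17 (adjusted p = 0.135) against the libraries without R. *Lctl*, a gene of the klotho family, fell from 6.42 ± 0.825 to 3.88 ± 0.636 CPM (-0.74, adjusted p = 2.24e-06). *Fgf23* itself, *Klb*, *Dmp1* and *Phex* did not pass the filter. Against the R libraries 8 genes of the list were higher and 1 lower, and against the others 3 were higher and 2 lower. The shares of all genes that passed in these fits were 59.8% and 40.5%.

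The list of the PTH receptor's ligands and signal chain had 14 of 17 genes tested, with 2 higher, 6 lower and a median of -0.15. Among all genes tested 24.1% were higher and 25.0% lower. Against either wildtype set alone 2 of the list were higher and 5 lower. All genes passed at 59.8% against the R libraries and at 40.5% against the others. *Gna11*, a G protein subunit, was 131 ± 11.2 CPM in wildtype and 107 ± 7.29 CPM in PKD (log2 fold change -0.30, adjusted p = 1.65e-05). The adenylyl cyclase gene *Adcy9* fell (-0.49, adjusted p = 0.00087), and *Adcy3*, of the same family, had 0.33 (adjusted p = 0.189). With the libraries without R, *Adcy9* had -0.28 (adjusted p = 0.158) and *Adcy3* -0.17 (adjusted p = 0.61), while the R libraries gave *Adcy3* 0.79 (adjusted p = 0.00174). *Arrb2*, a beta-arrestin, rose from 19.9 ± 4.74 to 25.4 ± 2.39 CPM (0.36, adjusted p = 0.00252), and so did the receptor accessory gene *Ramp1* (0.52, adjusted p = 0.0031), and both calls were lost against the R libraries (0.15, adjusted p = 0.148, and 0.33, adjusted p = 0.0844). The ligand genes *Pth* and *Pthlh* and the receptor gene *Pth2r* did not pass the filter.

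Among the 9 phosphate transport genes, all tested, 3 were higher, 1 was lower, and the median was 0.08. Of all genes tested 24.1% were higher and 25.0% lower. The sodium-phosphate cotransporter *Slc34a2* rose from 1.31 ± 0.569 to 7.29 ± 1.82 CPM (log2 fold change 2.44, SE 0.24, adjusted p = 6.69e-10), *Slc34a3* from 46.0 ± 14.2 to 67.4 ± 8.37 CPM (0.55, adjusted p = 0.000426) and *Slc20a1* from 52.9 ± 5.90 to 84.9 ± 14.4 CPM (0.68, adjusted p = 2.85e-07). The rise of *Slc34a3* was 0.89 (adjusted p = 2.87e-08) against the R libraries and was lost against the others (0.12, adjusted p = 0.467). The scaffold gene *Nherf2* fell (-0.59, adjusted p = 1.37e-05), and the phosphate exporter *Xpr1* had 0.18 (adjusted p = 0.125), with 0.43 (adjusted p = 5.23e-05) for the R libraries and -0.16 (adjusted p = 0.181) for the others. *Slc34a1*, the main phosphate transporter of the proximal tubule, named here after its values were seen, had -0.07 (adjusted p = 0.588), where the R libraries alone gave 0.21 (adjusted p = 0.0471) and the others alone -0.46 (adjusted p = 0.000127). The count of the list was 7 higher and 1 lower against the R libraries and 2 higher and 5 lower against the others. The shares of all genes that passed in these fits were 59.8% and 40.5%.

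The genes of distal calcium transport showed the strongest falls of the 5 lists. Of 13 genes 12 were tested, 2 were higher, 4 were lower, and the median was 0.08. Among all genes tested 24.1% were higher and 25.0% lower. The counts of the list were 4 and 5 with the R libraries alone and 3 and 4 with the others alone. All genes passed at 59.8% and 40.5% in these fits. *Calb1*, the calcium-binding protein calbindin of the distal tubule, fell from 284 ± 76.4 to 96.0 ± 15.3 CPM (log2 fold change -1.56, SE 0.12, adjusted p = 4.86e-12). *S100g*, another calbindin, fell from 366 ± 127 to 146 ± 38.6 CPM (-1.32, adjusted p = 2.35e-08), and *Slc8a1*, the basolateral sodium-calcium exchanger, from 108 ± 41.6 to 45.0 ± 6.56 CPM (-1.25, adjusted p = 2.76e-09). The apical calcium channel *Trpv6* rose from 2.32 ± 0.878 to 4.97 ± 1.01 CPM (1.14, adjusted p = 2.44e-06), and *Cldn19*, a tight junction gene of the thick ascending limb, had 0.63 (adjusted p = 2.77e-07). Against either set of wildtype libraries alone these 5 genes kept their direction with an adjusted p under 0.05. All 8 markers of the distal convoluted and connecting tubule, which include *Calb1* and *Trpm6* of this list, were lower in PKD, beside 25.0% of all genes. Against the R libraries alone 8 markers were lower, and against the others alone 7, beside 59.8% and 40.5% of all genes passing. The summed CPM of the 8 markers was 1736 to 2395 in wildtype, 859 to 1152 in PKD and 877 to 1276 in PKD + Salsalate. Their part in these falls was not tested.

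**Figure D5:**
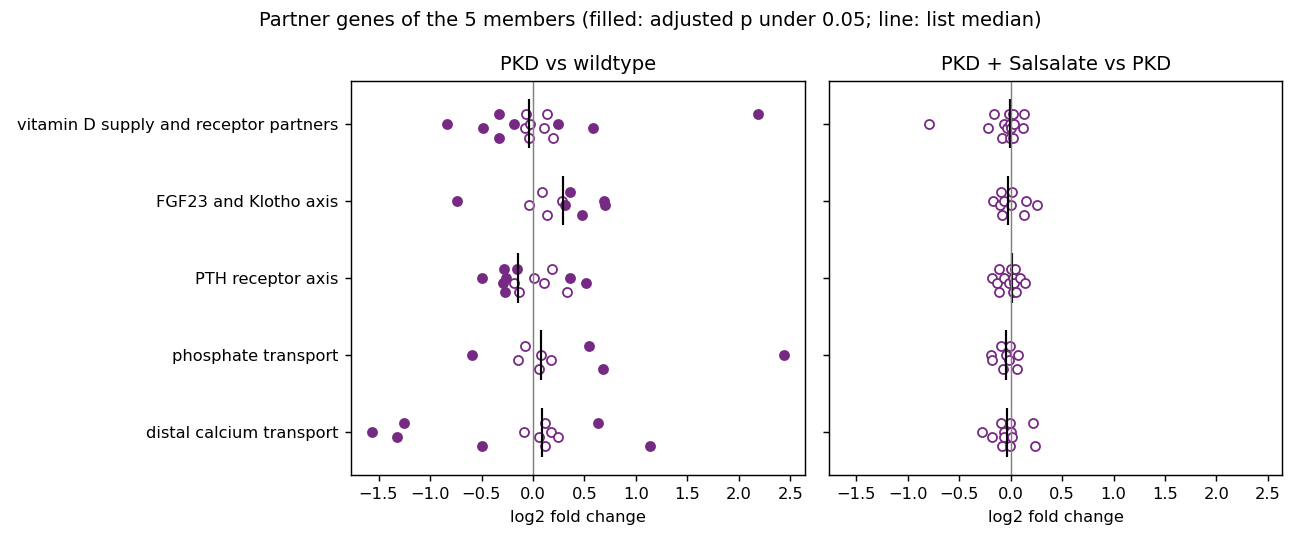
Log2 fold change of every tested gene of the 5 partner lists, for PKD against wildtype on the left and PKD + Salsalate against PKD on the right, with 1 point per gene and a line at each list's median. Filled points have an adjusted p under 0.05. On the right no point is filled.

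Between PKD + Salsalate and PKD, 0 genes of these 5 lists passed by edgeR's quasi-likelihood test, by DESeq2, by limma-voom or by edgeR on those kidneys alone. An unadjusted p under 0.05 by edgeR was found for 2 of 15 genes of the vitamin D list, 1 of 10 of the FGF23 and Klotho list, 0 of 14 of the PTH receptor list, 1 of 9 of the phosphate list and 1 of 12 of the calcium list, beside 10.3% of all genes tested. The list medians lay between -0.04 and 0.02, beside -0.01 for all genes. Between PKD + Salsalate and wildtype the counts of higher and lower genes were 1 and 5 in the vitamin D list, 5 and 1 in the FGF23 and Klotho list, 2 and 7 in the PTH receptor list, 3 and 2 in the phosphate list and 2 and 4 in the calcium list. In the same order the R libraries alone gave 4 and 6, 8 and 1, 3 and 6, 6 and 1, and 3 and 5. The others alone gave 0 and 2, 1 and 2, 2 and 3, 2 and 4, and 3 and 4. Of all genes tested, 44.9% passed between PKD + Salsalate and wildtype, 21.8% as higher and 23.2% as lower. This share was 58.1% with the R libraries alone and 34.6% with the others alone.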

How the data were processed

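RNA of 32 whole mouse kidneys (8 wildtype, 12 PKD, 12 PKD + Salsalate) was sequenced from strand-specific libraries. The authors deposited raw counts of reads per gene, without normalization. The submitters' processing notes name bcl2fastq 2.20, FastQC, cutadapt 2.10, STAR 2.7.5a, HTSeq 0.12.4 and GRCm39. The table has 53700 genes and 5 summary lines per kidney, which were kept out of library sizes and tests. Groups and replicate numbers came from the sample labels. Nothing says whether replicates are from separate litters or batches. No libraries of a group agreed within sampling noise (lowest chi-square per degree of freedom 5.96 over 160 pairs).

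The analysis used edgeR 4.0.16 in R 4.3.3. A gene was kept if its log2 CPM exceeded 1 in 25% of the kidneys (8 of 32) or more. Kept genes were scaled by the trimmed mean of M-values (TMM) and fitted by the quasi-likelihood method with the 3 groups together and no covariates. P-values were 2-sided and adjusted (Benjamini-Hochberg) over 13961 genes, with a threshold of 0.05. The SE of a log2 fold change was its size divided by the square root of the F statistic, with a 95% interval from the residual degrees of freedom. CPM values are TMM-scaled, and values per kb use exon lengths of GENCODE mouse release M39 (GRCm39), which also gave the positions and is a later release than the one counted on. Correlations used log2 CPM (prior count 2) with group means removed and 100000 permutations within groups. The fit and the permutations were tested on simulated data.

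The members and the gene lists were chosen with earlier results of these data known. The genes named are the members, up to 5 genes of each partner list with the largest log2 fold change between PKD and wildtype, every list gene called between PKD + Salsalate and PKD, and the 3 genes most like each member. Other genes were named after their values were seen, beside a small count. The relations with library measures and the list counts under other fits, without PKD replicate 10 or against 1 wildtype set were also added after the data were seen. Alternatives were DESeq2 size factors, the Wald test of DESeq2 1.42.0, limma-voom (limma 3.58.1), edgeR's filterByExpr, no filter, the compared groups alone, the replicate number as a block, each set of wildtype libraries, and each kidney left out in turn.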

Additional observations from a re-analysis of the deposited data

Results flagged for a closer look

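*Cyp27b1* in wildtype replicate 1 stood far from the other wildtype kidneys. Its level was 9.19 CPM, and the next highest of the 8 wildtype kidneys had 4.70 CPM. The gap was 0.554 of the whole wildtype range, above the limit of 0.526 for 8 samples, which chance passes in about 1 of 20 groups. The value rested on 97 counts.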

How the results depend on the processing

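With each set of wildtype libraries alone, the log2 fold change of *Kl* in PKD was 0.35 against the R libraries and -0.42 against the others (0.02 with all), and in PKD + Salsalate 0.12 and -0.65 (-0.22 with all). *Vdr* was -0.093 in PKD and -0.074 in PKD + Salsalate against the R libraries and no longer passed, and *Cyp24a1* in PKD was 0.44 against the others and no longer passed. *Vdr* also lost its call with no filter (-0.22 in PKD, -0.20 in PKD + Salsalate) and with the replicate block (-0.21 and -0.20). *Cyp24a1* between PKD + Salsalate and PKD passed with DESeq2's Wald test (1.25), limma-voom (1.43), the compared groups alone (1.23), and either wildtype set in the fit (1.23 and 1.22), and in each of these the count of members called was 1. The cause of these changes was not tested. Leaving out 1 kidney at a time, the ranges were -0.046 to 0.14 for *Kl* and -0.28 to -0.17 for *Vdr* in PKD against wildtype, and -0.25 to -0.16 for *Vdr* in PKD + Salsalate against wildtype. *Vdr* lost its call in PKD without wildtype replicate 7 (-0.17), and in PKD + Salsalate without wildtype replicates 6, 7 or 8 or PKD + Salsalate replicates 5, 6 or 11. Between PKD + Salsalate and PKD the ranges were -0.0205 to 0.058 for *Vdr*, 1.12 to 1.38 for *Cyp24a1* and 0 to 1 for the count of members called. *Pth1r* and *Cyp27b1* kept their direction and their side of the threshold under all alternatives. Same-numbered kidneys had correlated deviations (over 0.1) in 3 of 8, 3 of 8 and 2 of 12 pairs, so the numbers were not taken to pair kidneys, and the replicate block changed no other member's call.

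The count of correlated member pairs was 0 within PKD alone, 0 within PKD + Salsalate alone and 1 without PKD replicate 10, against 2. Within PKD + Salsalate alone r changed sign for *Kl* with *Cyp24a1* (-0.247) and *Cyp27b1* (-0.217), *Vdr* with *Pth1r* (0.332) and *Cyp24a1* with *Pth1r* (0.149), and within PKD alone for *Vdr* with *Cyp27b1* (0.12). *Cyp27b1* in wildtype had 15 to 97 counts, which limits its precision.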

Other observations

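The ratio of *Cyp24a1* to *Cyp27b1*, the calcitriol-degrading to the calcitriol-making enzyme, was formed per kb in each kidney after the values were seen, and it is given without a test. Its lowest, median and highest values were 0.604, 4.69 and 13.9 in wildtype, 0.767, 2.07 and 9.90 in PKD and 3.94, 6.60 and 28.5 in PKD + Salsalate. The 3 ranges overlapped.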
